A study of Drosophila melanogaster with 3 samples.

Results

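The Hox genes of Drosophila melanogaster were examined in a chromatin immunoprecipitation and sequencing (ChIP-seq) profile of the protein rgr (regular). The 8 members are lab, pb, Dfd, Scr and Antp of the Antennapedia complex and Ubx, abd-A and Abd-B of the bithorax complex, of 13968 protein-coding genes on the main chromosomes in the Ensembl annotation. They were taken by gene name, with no measured value in the rule, after earlier results of these data were known, and all 8 names were found in the annotation, on chromosome arm 3R. Every peak summit inside one of these genes or within 10 kb of it was taken.

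The profile came from whole larvae of the third instar at the wandering stage, males and females pooled, with the age given as unknown. The transgenic line expresses rgr fused to GFP at the C-terminus, and an antibody against GFP was used for the precipitation. There was 1 group of 3 biological replicates, and no other genotype, stage or tissue. Whether the fusion gene replaces rgr or is an extra copy, which promoter drives it, and whether untagged rgr remains is not given in the labels. A whole larva mixes body regions in which different Hox genes are on and off, so a site bound weakly in many cells and a site bound strongly in few cells cannot be told apart.

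The authors' thresholded list (called optimal below) holds 8551 peaks, and the pooled relaxed list, from which they were taken, holds 30000 entries that may include background. The optimal peaks are those with the highest signal of the pooled list, from 5263 down to 122.6, with the next entry at 122.5. Signal is the authors' own value per peak. It orders peaks within a list and is not compared between lists. For each replicate, the 8551 entries of highest signal in its own relaxed list of 30000 are called its top list. The number of reads behind the lists is not given in them, so depth is unknown.

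Hox genes encode homeodomain transcription factors that give segments along the head-to-tail axis their identity. In flies the genes lie in 2 clusters, are large, and are controlled by enhancers spread over introns and intergenic DNA. Polycomb and trithorax group proteins keep them off or on in the right segments through larval life. Their proteins often bind DNA together with the homeodomain proteins Extradenticle (exd) and Homothorax (hth), and the ATTA core is shared by many homeodomain factors.

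Sequence around 8 of the 17 optimal summits of the Hox windows is shown first, because these are the 3 strongest summits of Antp, the strongest of the bithorax windows and the 4 that hold a searched word. Each run covers 50 bases on either side of the summit on the plus strand of dm6, from the RefSeq copy of the assembly. Capitals mark a match, on either strand, to TATCGATA (the DNA replication-related element, DRE), TAATTA (a homeodomain core) or TGATNNAT (an Extradenticle and Hox composite, called the Exd-Hox word).
Antp, strongest, chr3R:6914485-6914585: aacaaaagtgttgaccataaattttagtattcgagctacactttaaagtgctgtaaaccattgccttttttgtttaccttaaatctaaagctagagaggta
Antp, second strongest, chr3R:6951229-6951329: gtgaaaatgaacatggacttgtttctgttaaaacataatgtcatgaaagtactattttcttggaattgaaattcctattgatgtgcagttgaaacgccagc
Antp, next strongest, chr3R:6936285-6936385: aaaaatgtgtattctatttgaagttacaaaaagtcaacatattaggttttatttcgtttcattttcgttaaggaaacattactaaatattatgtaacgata
Antp, with TAATTA at 2 places, chr3R:6912699-6912799: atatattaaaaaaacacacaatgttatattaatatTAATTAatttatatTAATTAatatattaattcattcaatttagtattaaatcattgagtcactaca
Antp, with TGATNNAT on both strands, chr3R:6954615-6954715: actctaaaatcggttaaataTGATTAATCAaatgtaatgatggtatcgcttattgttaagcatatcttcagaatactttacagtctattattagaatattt
Ubx window, beside modSP, chr3R:16655727-16655827: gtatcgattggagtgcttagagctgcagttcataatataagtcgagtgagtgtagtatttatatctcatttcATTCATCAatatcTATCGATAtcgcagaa
Ubx, with TAATTA, chr3R:16718158-16718258: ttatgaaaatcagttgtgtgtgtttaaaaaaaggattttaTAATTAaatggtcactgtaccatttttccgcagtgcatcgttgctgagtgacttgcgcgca
abd-A window, chr3R:16798849-16798949: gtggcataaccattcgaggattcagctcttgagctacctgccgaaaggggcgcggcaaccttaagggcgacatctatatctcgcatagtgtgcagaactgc
The 3 strongest Antp summits and the abd-A summit hold no match to any of the searched words.

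No Hox gene had an optimal summit at a promoter. Within 500 bp of a transcript start there was an optimal summit at 0 of the 8 genes, against 29.0% of all protein-coding genes and 42.5% of the 1873 genes at least as long as Dfd, the shortest member. The 8 genes have 44 annotated transcripts with 19 distinct starts, and the count over starts was likewise 0. With the pooled relaxed list, 4 of the 8 genes had an entry within 500 bp of a start, against 45.8% of all protein-coding genes. Among the 1873 genes at least as long as Dfd, 1298 had such an entry. The Hox share was thus near that of all genes and below that of the long genes, and with 8 genes this was not tested.

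The weak promoter entries sat at lab, Antp, abd-A and Abd-B. At lab, which acts in the head and the midgut, an entry of signal 71.7 (pooled rank 14204) lay 422 bp downstream of the start of transcript RB and another of 42.6 lay 217 bp downstream. At Antp, the entry lay 197 bp upstream of the proximal start, with signal 46.5 and rank 20494. At abd-A, the gene for the middle abdomen, it lay 114 bp downstream of the start of transcript RD, with signal 55.5 and rank 17656. All 3 genes thus had entries well below the lowest optimal signal. At Abd-B, the gene of the most posterior abdomen, the entry lay 245 bp upstream of the start shared by 4 transcripts, with signal 60.3, and at ranks 18978, 26207 and 12603 of replicates 1, 2 and 3.

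The top lists of the replicates taken singly gave few promoter summits at Hox genes, and the whole relaxed lists did not give few. In the top lists, 1, 0 and 1 of the 8 genes had a summit within 500 bp of a start in replicates 1, 2 and 3, against 30.9%, 29.4% and 29.5% of all protein-coding genes (mean 29.9% ± 0.839, SD, n = 3). The hit in replicate 1 was 357 bp upstream of Dfd, at rank 7830, and that in replicate 3 was 486 bp upstream of the proximal Antp start, at rank 8392. Neither gene was hit in the top list of another replicate. In the whole relaxed lists, 5, 4 and 6 of the 8 genes were hit, against 50.7%, 47.7% and 49.9% of all genes (mean 49.4% ± 1.55, SD, n = 3). These counts were near or above the share over all genes. A share over long genes is not given here for these lists. Entries for pb, 45 bp upstream of its start at rank 14713, and for Ubx, 39 bp downstream at rank 18055, were listed in replicate 3 and in neither of the others.

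Over the whole window, 5 of the 8 Hox genes had an optimal summit in the gene or within 10 kb. The share was 73.0% of all protein-coding genes and 81.6% of the 1873 genes at least as long as Dfd, with summits at promoters included. The 5 Hox genes were Dfd, Scr, Antp, Ubx and abd-A, and no such summit was found for lab, pb or Abd-B. With the pooled relaxed list the count was 7 of 8 against 88.2%, with pb as the exception. Inside the gene itself, 2 of the 8, Antp and Ubx, held an optimal summit, against 17.9% of all genes, which are mostly much shorter. The median count inside the gene was 0 for the Hox genes and 1 for the 1873 long genes, so the Hox genes were not above genes of such length. In all, the windows held 17 optimal and 78 relaxed summits, and 13 of the 17 were inside the genes.

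**Figure D1:**
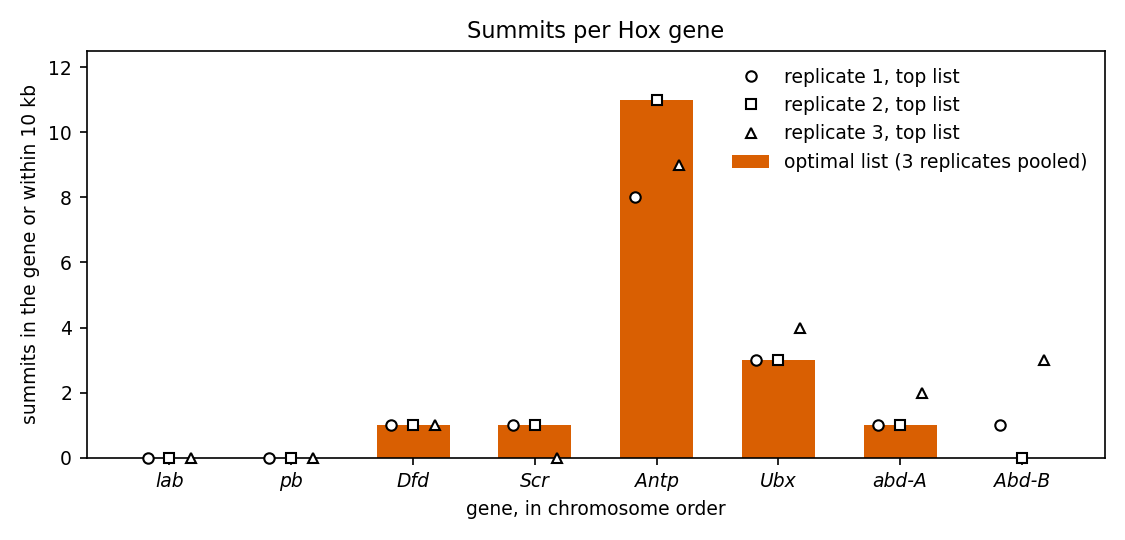
Summits in each Hox gene or within 10 kb of it, in chromosome order. Bars give the count in the optimal list and open symbols the count in the top list of each replicate. Antp has 11 in the optimal list and 8, 11 and 9 in the replicates, and no other member exceeds 4.

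Antp held most of them. Antp specifies the second thoracic segment and, when misexpressed in the head, turns antennae into legs. The gene (FBgn0260642, minus strand, chr3R:6896253-6999228) held 11 optimal summits, all inside it, and 36 relaxed summits. The top lists of replicates 1, 2 and 3 held 8, 11 and 9 (mean 9.33 ± 1.53, SD, n = 3), so every replicate had more than in any other member. The 11 peaks form 9 separate intervals, since some neighbours overlap. When a peak had to be in the top lists of both other replicates, 7, 7 and 8 remained without replicates 1, 2 and 3.

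The strongest Antp summit (signal 650, pooled rank 846) lay in an intron 18305 bp downstream of the proximal start. Its ranks in replicates 1, 2 and 3 were 890, 825 and 889. The second (487, rank 1386) lay 7091 bp downstream of the middle start, at ranks 1227, 1599 and 1491. The third (443, rank 1635) lay 3495 bp upstream of the proximal start, at ranks 1440, 1884 and 1468. These 3 summits were thus high in every replicate. The summit at 6912549 (356) ranked 1754, 2753 and 3378. The summit at 6950285 (331) ranked 2623, 2383 and 3602. Both stayed within the top list of every replicate.

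The other 6 Antp summits were weaker, with signals between 123 and 202. The AT-rich summit at 6912749 (202, AT content 87.1%) ranked 3335, 7091 and 4801. That at 6939883 (180) ranked 8275, 5136 and 7294, and that at 6903496 (175), in an exon of the noncoding RNA gene lncRNA:CR43252 within an Antp intron, ranked 6059, 5800 and 8991. The summit at 6903496 thus fell outside the top list of replicate 3, and the weakest ones were likewise not shared by all top lists. The summit at 6949539 (123) ranked 12266, 7751 and 10841, that at 6950485 (135) ranked 11026 and 7140 with no entry within 100 bp in replicate 3, and that at 6954665 (126) ranked 11694 and 7750 in replicates 1 and 3 with no entry within 100 bp in replicate 2.

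Position within Antp was uneven. The gene has 3 starts, at 6932840 (proximal, 6 transcripts), 6958370 (middle, 1 transcript) and 6999228 (distal, 5 transcripts). The 25.5 kb between the middle and the proximal start held 7 optimal summits, 2.74 per 10 kb, with 4, 7 and 6 in the top lists of replicates 1, 2 and 3. The 36.6 kb from the proximal start to the 3′ end held 4, with 4, 4 and 3 in the replicates. The 40.9 kb between the distal and the middle start held 0 optimal summits and 0 in every top list. That stretch did hold 11 relaxed summits, the highest at signal 86.2. The protein-coding gene CG46458 overlaps Antp on the same strand from the 3′ end to the middle start and holds the same 11 summits, so they cannot be assigned to one of the genes.

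**Figure D2:**
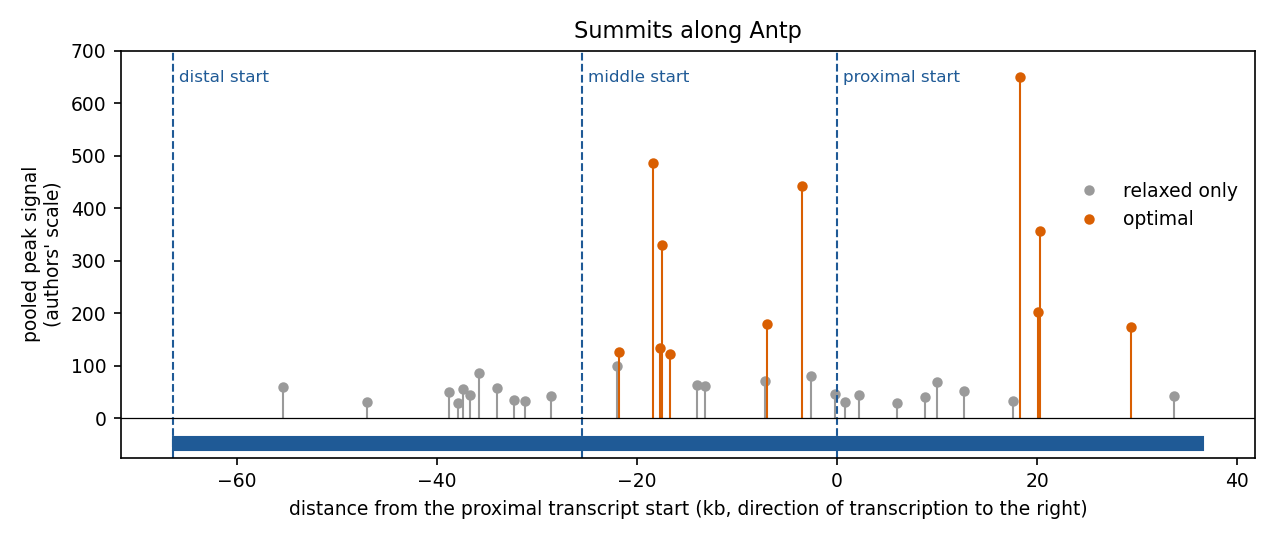
Pooled summits along Antp, with distance from the proximal start in kb on the x axis and the authors' peak signal on the y axis. The blue bar is the gene, dashed lines are its 3 starts, and the 11 optimal summits lie downstream of the middle start, with none between the distal and the middle start.

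Antp is a long gene, at 103 kb. An in-gene count of 11 or more was reached by 47 of the 13968 protein-coding genes (0.336%), all of them at least as long as Dfd. Per length, Antp had 1.068 optimal summits per 10 kb of gene, against a median of 0.369 for the 1873 long genes, and 25.7% of those were at or above it. Counted over the gene and 10 kb on each side, it had 0.894 per 10 kb, and 37.8% of the long genes were at or above it. By count Antp stood near the top of all genes, and by density it did not.

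Ubx, which sets the third thoracic segment with its halteres and the first abdominal segment, had fewer summits in a gene nearly as long. The gene (FBgn0003944, minus strand, chr3R:16656623-16734426) held 2 optimal and 13 relaxed summits, and its window 3 and 18. The top lists held 3, 3 and 4 (3.33 ± 0.577, SD, n = 3). The 2 intronic summits lay 16218 bp downstream of the start (signal 189, ranks 8032, 4746 and 6466) and 30010 bp downstream (179, ranks 5523, 5674 and 8575). Both were weaker than the median optimal peak, at 225, and the one at 30010 bp fell just outside the top list of replicate 3. The third, at 16655777 (221, ranks 5693, 3398 and 4236), lay 846 bp beyond the 3′ end of Ubx and 115 bp upstream of a start of modSP, a serine protease gene of the Toll pathway, so its nearest start is not that of a Hox gene. In the gene itself, Ubx had 0.257 summits per 10 kb, below the median of long genes.

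Dfd, Scr and abd-A had 1 optimal summit each, none of them inside the gene. Dfd, needed in the mandibular and maxillary segments (chr3R:6791836-6802428, plus strand), had its summit 9891 bp past the 3′ end and 20483 bp from the start, in an intron of the noncoding RNA gene lncRNA:CR42651. Its signal was 260, and it ranked 2610 and 2430 in replicates 2 and 3, with no entry within 100 bp in replicate 1. The window edge fell here, and the next summit (204) lay 10102 bp from Dfd, just outside. Scr, which acts in the labial and first thoracic segments and in the salivary gland (chr3R:6823120-6849981, minus strand), had its summit 4309 bp past the 3′ end, between genes. It had signal 174 and ranks 5277, 6201 and 10538. Both single summits thus rested on the top lists of 2 of the 3 replicates. When a peak had to be in the top lists of both other replicates, Dfd fell to 0 without replicate 2 or 3, and Scr without replicate 1 or 2.

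The abd-A summit (chr3R:16807214-16830049 is the gene, minus strand) lay 8315 bp past the 3′ end, between genes. Its signal of 281 was the highest of the bithorax windows, and it ranked 2872, 3932 and 3220 in replicates 1, 2 and 3, within the top list of each. Its surroundings had an AT content of 46.5%, the lowest of the 17. Inside abd-A there were 5 relaxed summits, all at 69.4 or less.

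lab, pb and Abd-B had no optimal summit in their windows. For lab (chr3R:6661427-6678590) the top lists held 0, 0 and 0 and the nearest optimal summit was 81059 bp away. For pb, a gene of the adult mouthparts (chr3R:6707800-6742063), the top lists also held 0, 0 and 0, the pooled relaxed window was empty, and the nearest optimal summit, at signal 350, was 17586 bp away beside bcd. For Abd-B (chr3R:16927212-16972236), the top lists of replicates 1, 2 and 3 held 1, 0 and 3, which overlaps with the zero counts of the other genes. A relaxed entry of signal 103 lay 9991 bp from Abd-B, just inside the window and 69 bp upstream of a start of another gene, AhcyL2, and the nearest optimal one (192) lay 13549 bp away.

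The order of the members by optimal summits per 10 kb of window was Antp (0.894), Dfd (0.327), Ubx (0.307), abd-A (0.233), Scr (0.213), and then lab, pb and Abd-B at 0. In the replicates' counts Antp, at 8 to 11, overlapped with no other member. Ubx, at 3 to 4 in a window of 97.8 kb, overlapped in count with Abd-B, at 0 to 3. Its counts lay above those of Dfd, Scr and abd-A, whose windows were shorter, at 30.6, 46.9 and 42.8 kb. Per 10 kb of window Ubx did not lie above Dfd. Dfd, Scr and abd-A, at 0 to 2, and Abd-B did not differ in count beyond the spread of their replicates. The median of the 8 was 0.223, against 0.765 for all protein-coding genes and 0.615 for the 1873 genes at least as long as Dfd.

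**Figure D3:**
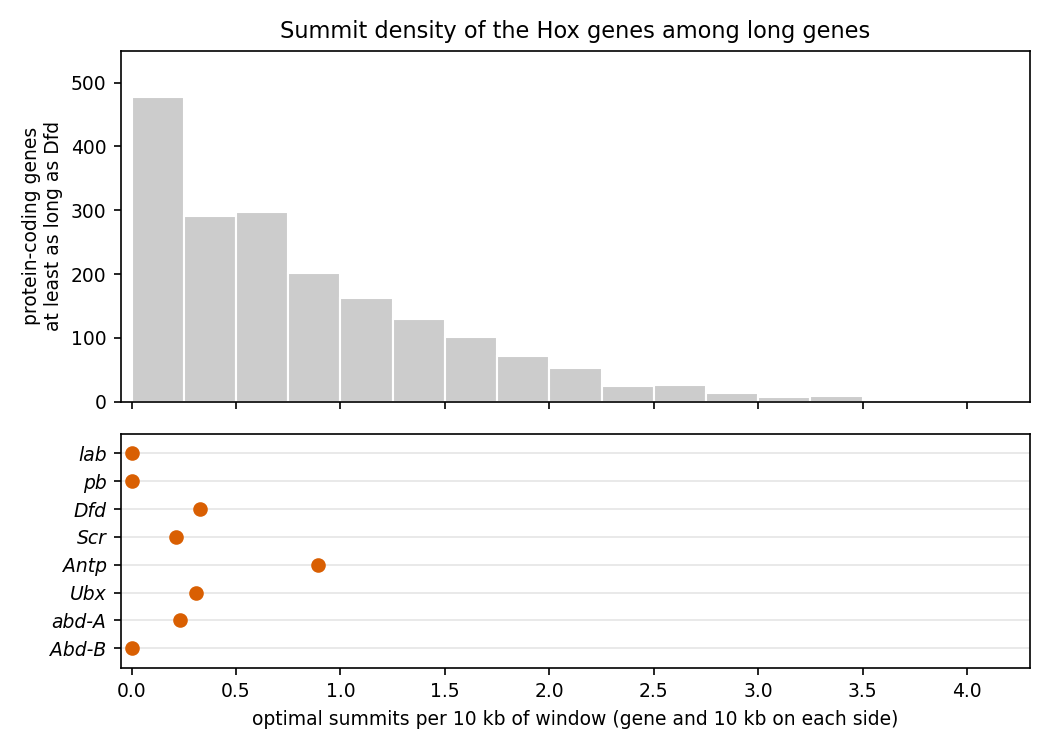
Optimal summits per 10 kb of window for the 1873 protein-coding genes at least as long as Dfd (histogram, top) and for each Hox gene (points, bottom, same x axis). Antp lies at 0.894 and the 7 others between 0 and 0.327, in the 2 lowest bins.

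The complexes as a whole differed in the same sense. From lab to Antp, 338 kb held 18 optimal summits, 5.33 per 100 kb, and from Ubx to Abd-B, 316 kb held 6, or 1.90 per 100 kb. Arm 3R as a whole had 6.20. The replicates' top lists gave 14, 17 and 16 summits in the Antennapedia complex (4.64 ± 0.452 per 100 kb, SD, n = 3) and 7, 4 and 9 in the bithorax complex (2.11 ± 0.797), against 6.27 ± 0.128 for the arm. The bithorax counts were lower in every replicate. Both regions were also below the arm in the relaxed list, with 17.5 and 13.0 entries per 100 kb against 21.2. Of the relaxed entries, 30.5% were optimal in the Antennapedia complex, near the 29.2% of the arm, and 14.6% in the bithorax complex.

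Much of the Antennapedia total came from Antp. The 235 kb from lab to the edge of Antp held 7 optimal summits, 2.98 per 100 kb. Apart from the Dfd and Scr summits, 4 of these lay at bcd and Ama, genes inside the complex that are not Hox selectors of segments in the fly. The summit 183 bp upstream of bcd, the maternal anterior determinant, had signal 350 and ranks 2298, 2483 and 2193. The summit 324 bp upstream of Ama, which encodes a secreted immunoglobulin domain protein, had signal 402 and ranks 1962 and 2268 in replicates 1 and 3, with no entry within 100 bp in replicate 2. A weaker optimal summit 119 bp upstream of Ama (signal 160) had an entry within 100 bp in replicate 3 only, at rank 3921. So the optimal promoter summits of the complex belonged to neighbours of the Hox genes.

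**Figure D4:**
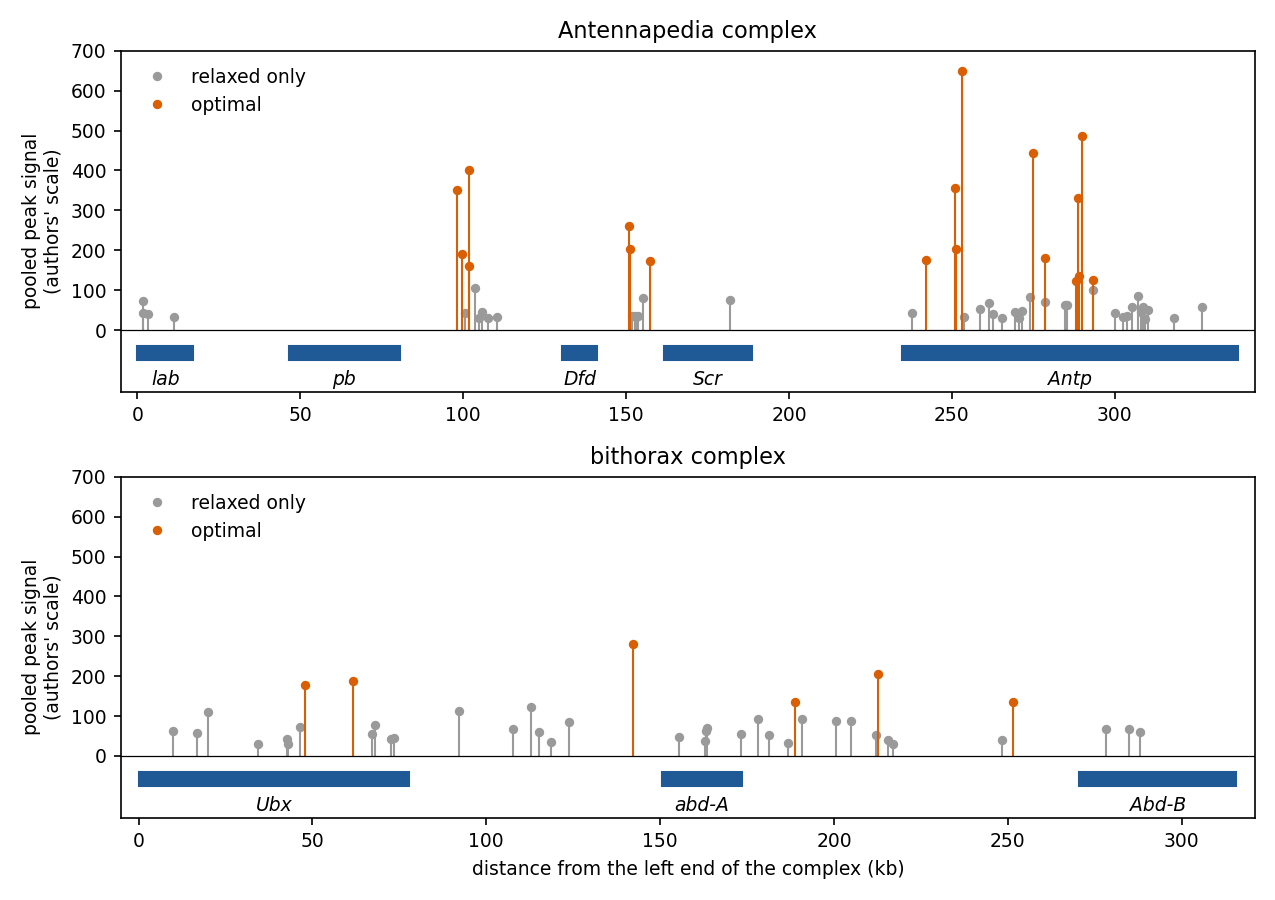
Pooled summits across the Antennapedia complex (top) and the bithorax complex (bottom), by distance in kb from the left end of each and by the authors' peak signal. Orange marks optimal and grey relaxed entries, and blue bars are the Hox genes. The optimal summits of the bithorax complex reach 281, while those of Antp reach 650.

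Of the 15 other protein-coding genes in the Antennapedia complex, 2 had an optimal promoter summit, bcd and Ama, against 29.0% of all protein-coding genes, and the same 2 were counted with the relaxed list, against 45.8%. Of its 25 noncoding RNA genes, 1 had an optimal promoter summit, lncRNA:CR45593 from the summits at Ama, and 4 a relaxed one, against 12.0% and 30.4% of the 3498 noncoding RNA genes. The homeobox genes zen and ftz, which lost the homeotic role in flies, had none, with 4 and 0 optimal summits in their windows. The 4 in the zen window are the summits at bcd and Ama given above. In the bithorax complex, 0 of 3 other protein-coding and 0 of 11 noncoding RNA genes had an optimal or relaxed promoter summit, against the same shares. The noncoding RNA gene lncRNA:iab8, which spans the region between abd-A and Abd-B, held 3 optimal summits, with signals of 136, 206 and 135. The protein-coding gene MSAmiP overlaps it and held 2 of these. lncRNA:bxd, upstream of Ubx, had 0 optimal and 6 relaxed summits in its window.

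**Figure D5:**
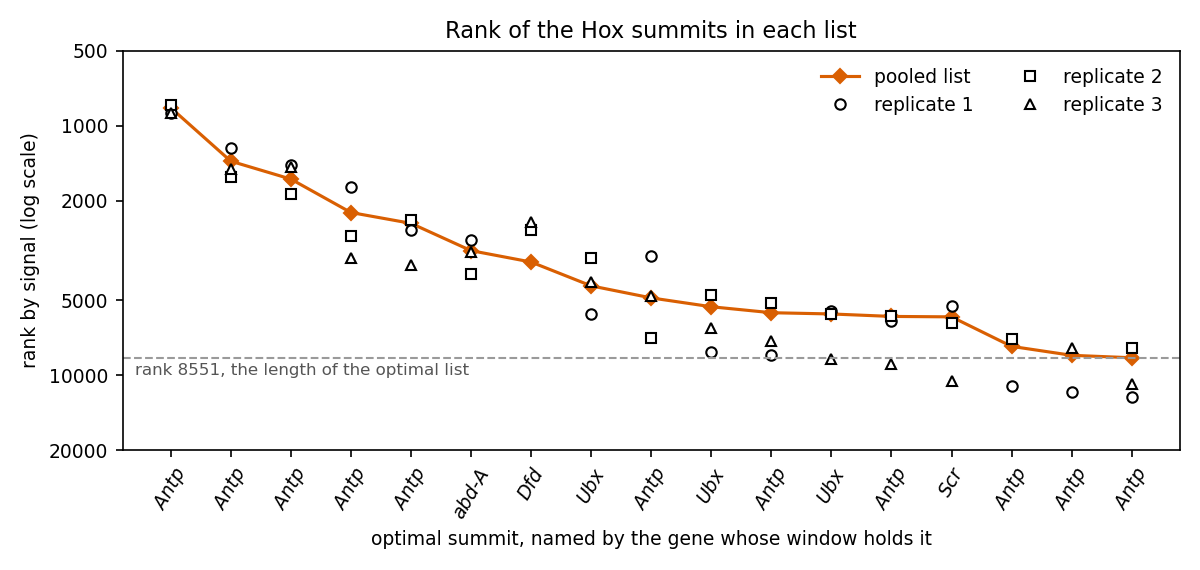
Rank by signal (log scale, strongest at the top) of the 17 optimal Hox summits in the pooled list and in each replicate's relaxed list, ordered by pooled rank. Symbols are absent where a replicate has no entry within 100 bp. The 3 strongest, all in Antp, keep similar ranks in the 3 replicates, and the lower ones spread more.

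Replicate sharing of the Hox summits was not distinguishable from that of all optimal peaks at this number of summits. Of the 17, 10 (58.8%, exact 95% binomial interval 32.9% to 81.6%) were matched within 100 bp in the top lists of all 3 replicates, against 64.8% of all optimal peaks. Of the rest, 4 were matched in 2 replicates and 3 in 1. Matching within 50 bp gave 35.3% for the Hox summits, against 49.4% of all optimal peaks. In the whole relaxed lists, 14 of 17 (82.4%) were matched in all 3, against 89.5%. These lists are the source of the optimal list, so the sharing is partly fixed by that choice, and the interval covers counting error only. The median signal of the 17 was 202, at percentile 42.7 of the optimal list. For the summits that each replicate's own top list held in these windows, the median percentile in replicates 1, 2 and 3 was 38.3, 44.5 and 27.8 (SD 8.43), below the middle of the list in each.

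The distance of the Hox summits from transcript starts was set largely by Antp. The median distance of the 17 to the nearest start of any gene was 7040 bp, with a range of 115 to 15700 bp. For all optimal peaks the median was 677 bp. The 11 Antp summits lay 1186 to 9853 bp away. The 6 others lay at 115, 1083, 1500, 1701, 1919 and 15711 bp. By feature, 13 of the 17 lay in introns, most of them in Antp, 1 in an exon of a noncoding RNA, 2 between genes, and 1 at a promoter, that of modSP. Shares by feature over all optimal peaks are not given here, so these counts describe the 17 and are not set against a background. AT content around them was like that of other peaks (median 66.3% against 65.3%).

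The 6 words searched within 50 bp on both strands were rare at the Hox summits, and 17 summits allow only wide intervals. Matches may overlap, and the TAATTA and TGATNNAT words can share bases. TAATTA was present at 2 of 17 (11.8%, exact 95% interval 1.46% to 36.4%), against 8.53% of all optimal peaks. TGATNNAT was present at 2 of 17, in Antp and beside modSP, against 7.1%. TATCGATA, the DRE, was present at 1 of 17 (5.88%), the summit beside modSP, against 1.88%. The GAGA word GAGAGAG, the Pho word GCCAT (core of the Pleiohomeotic site) and the word TGCATACTT of the insulator protein Su(Hw) were each at 0 of 17, which leaves upper limits of 19.5% each, against 1.72%, 13.3% and 0.398%. Each interval included the share over all optimal peaks. The Pho word depended on the window, and within 100 bp it was at 6 of 17 (35.3%), against 25.4% of all optimal peaks.

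The sequence just upstream of the Hox starts, where no optimal summit was found, was searched for the same words. In the 250 bases upstream of each of the 19 starts, GAGAGAG was present at 7, against 7.03% of 19630 starts of protein-coding genes, and GCCAT at 11, against 35.5%. TATCGATA was at 0, against 6.91%, TAATTA at 0, against 17.8%, TGCATACTT at 0, against 0.397%, and TGATNNAT at 4, against 15.8%. Median AT content was 48.8%, against 61.6% over all starts. Starts of 1 gene are not independent, and some lie close together. A match is a description of the letters and not of a bound site. Of the 7 windows that hold the GAGA word, those of Dfd, Ubx and abd-A (transcript RD) are shown as examples from both complexes, picked after the matches were seen. Each is read along the strand of its gene and ends at the base before the start, with matches on either strand to the GAGA, Pho and Exd-Hox words in capitals.
Dfd upstream, plus strand gene, chr3R:6791586-6791835: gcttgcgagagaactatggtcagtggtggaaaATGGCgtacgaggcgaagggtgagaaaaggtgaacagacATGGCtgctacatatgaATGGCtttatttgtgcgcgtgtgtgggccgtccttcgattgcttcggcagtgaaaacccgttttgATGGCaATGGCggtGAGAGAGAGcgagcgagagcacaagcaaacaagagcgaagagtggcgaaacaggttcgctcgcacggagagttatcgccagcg
Ubx upstream, minus strand gene, chr3R:16734427-16734676: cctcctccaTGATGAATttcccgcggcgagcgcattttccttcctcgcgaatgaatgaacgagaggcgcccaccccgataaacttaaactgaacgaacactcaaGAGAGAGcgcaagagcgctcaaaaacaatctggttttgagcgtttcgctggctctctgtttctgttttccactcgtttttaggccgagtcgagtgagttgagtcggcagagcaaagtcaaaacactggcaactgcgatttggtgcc
abd-A upstream of transcript RD, minus strand gene, chr3R:16830050-16830299: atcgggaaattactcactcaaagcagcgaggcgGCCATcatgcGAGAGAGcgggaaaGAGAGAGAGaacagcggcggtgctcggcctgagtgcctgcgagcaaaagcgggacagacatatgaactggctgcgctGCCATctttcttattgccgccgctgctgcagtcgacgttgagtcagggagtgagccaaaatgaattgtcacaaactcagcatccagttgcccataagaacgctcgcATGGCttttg
No optimal or pooled relaxed summit lay in these 3 windows. The relaxed list of replicate 2 had a weak entry in the abd-A window, 151 bp upstream of the RD start at rank 26578.

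Genes that work with the Hox proteins were compared as a list that includes exd, hth, tsh, tio, disco and disco-r. Of these 6, 1 had an optimal promoter summit, tio, a zinc finger gene related to tsh (signal 134, 148 bp upstream, ranks 12416 and 7445 in replicates 1 and 3 and no entry within 100 bp in replicate 2). Over all protein-coding genes the share was 29.0%. With the relaxed list the count was 5 of 6, against 45.8%, and with 6 genes neither was tested. hth, which encodes the homeodomain partner that brings Extradenticle into the nucleus, resembled Antp with 12 optimal summits inside the gene, 15 in its window and 0 at its promoters. disco-r had 2 in its window and exd had 0.

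Of 9 genes known as Hox targets (Dll, dpp, wg, salm, salr, kn, vg, rpr and fkh), 2 had an optimal promoter summit. The forkhead factor gene fkh, activated by Scr in the salivary gland, had one 220 bp upstream of a start with signal 1550 and rank 118, and ranks of 134, 120 and 72 in the replicates. The limb gene Dll, repressed in the abdomen by bithorax proteins, had one 114 bp upstream with signal 258 and ranks of 3725, 3729 and 4472. Relaxed promoter summits were present at 7 of the 9. In their windows, kn had 5 optimal summits, Dll 4, dpp, fkh, vg and wg 3 each, rpr 2, and salm and salr 0. The median was 3, against 2 for all protein-coding genes and 3 for the 1873 genes at least as long as Dfd. An optimal summit was in the window of 7 of the 9, against 73.0%. Beside the 29.0% and 45.8% of all protein-coding genes, the optimal share was lower and the relaxed share higher, and with 9 genes neither was tested.

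The genes most like Antp were sought among the 9920 protein-coding genes with no optimal promoter summit, by their optimal summits in the gene or within 10 kb. The first 5 were kirre with 38, a cell adhesion gene of muscle fusion, heca with 17, Raf, the kinase of the MAP kinase cascade, with 15, hth with 15, and ds, an atypical cadherin gene, with 14. Antp was among 26 genes with 11 or more and, counted inside the gene, among 6. Likeness here is the count in the pooled list, over 1 list, and long genes lead it.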

How the data were processed

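ChIP-seq of GFP-tagged rgr from whole larvae (1 group, 3 biological replicates, sonicated chromatin) was read from the peak lists that the authors deposited on dm6. Per the deposited file listing, the relaxed list of each replicate was made against a control alignment, as was a relaxed list of the 3 replicates pooled, and the optimal list passed an irreproducible discovery rate threshold. How reads were aligned, which peak caller was used and where the threshold lay is not given in the sources used here. The signal deposited per peak, of no stated scaling, served to rank peaks within a list. The deposited −log10 q-value is at its ceiling of 4.19 for 7820 optimal peaks (15 of the 17 Hox ones) and was not used. Depth is unknown, since the lists hold no read counts. Lists on dm3 were not used here.

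A summit is the peak start plus the listed offset, given 1-based. Genes and starts came from Ensembl release 115 and sequence from RefSeq, on the same assembly. Transposable element copies and mature RNA segments were left out of nearest starts and of neighbour counts. Summits were assigned to a gene within 10 kb, to a promoter within 500 bp of any start, and matched between lists within 100 bp. Leaving out a replicate kept the optimal peaks present in both remaining top lists. Intervals are exact (Clopper-Pearson) at 95% and cover counting error only. No test was made, because there is 1 group, and shares over all genes stand beside the counts. The members and lists were chosen with earlier results of these data known. Named genes were the members, the listed genes with an optimal promoter summit and up to 2 others with the most summits, and the 5 genes without a promoter summit with the most summits, besides nearest genes. Other genes named (zen, ftz, exd, lncRNA:bxd and others of the short lists) were added after their values were seen. The functions were tested on simulated data. Alternatives were other margins, promoter and matching distances, RefSeq starts, the stronger 4275 peaks of the optimal list, other word windows and leaving out each replicate. Added after seeing the data were overlapping intervals counted once and Antp left out. Python 3.11.15, numpy 2.4.6, pandas 2.3.3, scipy 1.17.1 and matplotlib 3.10.9 were used.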

Additional observations from a re-analysis of the deposited data

How the results depend on the processing

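The promoter counts, 0 of 8 genes with optimal and 4 of 8 with relaxed summits, were unchanged under the alternatives run for each (250 and 1000 bp, RefSeq starts and, for the optimal count, the stronger 4275 peaks and each replicate left out). For the optimal count of 0, only 1000 bp and RefSeq starts could have changed it. The other settings take fewer peaks or a shorter distance, so 0 was fixed in advance there. The 17 optimal summits became 26 with a 20 kb margin, 7 among the stronger 4275 peaks, 6 without Antp, and 10 to 13 with a replicate left out. Counting overlapping intervals once gave 15. The 5 genes with an optimal summit in the window became 2 with no margin, 3 with 5 kb, 7 with 20 kb, 3 among the stronger 4275, and 3 to 4 with a replicate left out. The share of Hox summits matched in all 3 replicates was 82.4% in the whole relaxed lists. The density per 100 kb was 17.5 and 13.0 in the Antennapedia and bithorax complexes with relaxed entries, 2.37 and 0.317 among the stronger 4275, and 3.26 to 3.55 and 0.951 to 1.27 with a replicate left out, so the Antennapedia complex was denser in each. Within 25 bp of the summit the DRE and the Exd-Hox word were at 0%, against 0.807% and 3.27% of all optimal peaks, and within 100 bp GCCAT was at 35.3%, against 25.4%. Lists with fewer peaks give fewer summits by construction. No paired analysis was possible because there is 1 group. Depth is unknown, so the weak promoter entries carry no estimate of what more reads would list.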
